A study of Mus musculus with 77 samples.

Results

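*Pcolce* and 9 other genes that act on procollagen after its chains are made (*Pcolce2*, *Bmp1*, *Lox*, *Loxl1*, *Loxl2*, *P4ha1*, *P4ha2*, *Plod2* and *Serpinh1*) were followed in the retina of mice with oxygen-induced retinopathy (OIR). They were picked by name from 21154 genes with a symbol on the array, and every probe whose transcript maps to one of the 10 symbols was kept, which gave 17 of 55681 probes. 5 genes had 1 probe, 3 had 2 probes, and *Bmp1* and *Loxl2* had 3 probes each. *Pcolce* was picked because it was already known to be higher in OIR mice on P17 and P28, so its values on those days are given as a description, with no test. The other 9 genes were also chosen with earlier results of these data known. Each gene is read by its brightest probe, and the further probes are described apart.

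Collagen is made as procollagen chains in the endoplasmic reticulum. There, prolyl 4-hydroxylases (*P4ha1* and *P4ha2* encode their catalytic subunits) hydroxylate proline, lysyl hydroxylases such as *Plod2* hydroxylate lysine, and the chaperone HSP47, encoded by *Serpinh1*, binds the folded triple helix. After secretion, the proteinase encoded by *Bmp1* removes the C-terminal propeptide of fibrillar procollagens, and the glycoproteins encoded by *Pcolce* and *Pcolce2* bind that propeptide and enhance its removal. Lysyl oxidases (*Lox*, *Loxl1*, *Loxl2*) then oxidise lysines and so allow crosslinks to form. In the OIR model, high oxygen halts and prunes growing retinal vessels, and on return to room air the poorly perfused, hypoxic retina grows abnormal vessels that later regress.

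All mice were C57BL/6. Litters with their dam were randomised on P7 to hyperoxia (75% oxygen, the OIR group) or normoxia (21% oxygen, the control group) until P12, and then stayed in room air. Retinas were taken on P12, at the end of the exposure, on P17 or on P28, with 12 control and 13 OIR mice for P12, 12 and 13 for P17, and 14 and 13 for P28. The pair of retinas of a mouse was pooled and hybridised with a universal mouse reference RNA on a 2-colour array. The labels do not tie mice to litters, so each p-value treats the mice as independent although litter mates shared a cage and an exposure. Each day's OIR mice were compared with that day's control mice to ask which genes differed immediately after hyperoxia, during neovascularization and later, on P28.

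Values are log2 of retina over reference RNA. The labels give the retina as Cy5, but on all 77 arrays Cy3 was the brighter channel for *Sag*, *Gnat1* and *Pde6b*, which rods express, by 0.99 to 8.27 on the log2 scale, so the Cy3 channel was taken as the retina and every sign below is opposite to the labelled dyes. Between 13765 and 34306 probes an array were well above background in that channel, with group medians of 20050 to 21099.5 on P12 and P17 and of 32169.5 and 32885 on P28. For 4 arrays (1 control on P12, 1 OIR on P17 and 2 OIR on P28) the median correlation with the other arrays of their group was under 0.85. Without them the number of called members was the same on each day, while in either direction 0.0198% of all probes were then called for P12, 1.46% for P17 and 3.15% for P28. Bulk retina values do not tell more cells of a type apart from more RNA per cell.

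The promoters are shown as a description, because the pathway holds known targets of hypoxia-inducible factors. Of the 4 members called higher on P17, as described below, *P4ha2* and *Serpinh1* had a window at hand, and *Bmp1* and *Loxl2* had none. Any part of these factors in the P17 differences was not tested. RefSeq promoter windows (build GRCm38.p6) were at hand for 5 of the 10 members, and the 250 bases before the start were searched on both strands for ACGTG and GCGTG, the core letters that these factors recognise. On opposite strands ACGTG can overlap itself. Either word stood in 38.6% of 32851 mouse promoter windows of this length, ACGTG in 16.6% and GCGTG in 28.2%. It stood in 4 of the 5 member windows, with 3 matches each in *P4ha2* and *P4ha1* and 1 each in *Serpinh1* and *Pcolce*. The window of *Pcolce2* held none. The start is that of the RefSeq transcript behind each window, and for *Pcolce* and *P4ha1* it is not the outermost start of the gene, so part of these windows lies inside the gene interval. The 4 windows with a match are printed 5′ to 3′ on the strand of the gene, with the matching letters in capitals.
*Pcolce*, chr5:137611405-137611654, minus strand: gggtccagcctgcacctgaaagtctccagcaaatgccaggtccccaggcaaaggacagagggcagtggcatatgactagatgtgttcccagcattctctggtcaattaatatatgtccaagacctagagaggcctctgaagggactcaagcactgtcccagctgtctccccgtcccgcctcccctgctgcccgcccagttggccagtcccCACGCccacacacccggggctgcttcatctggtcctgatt
*P4ha2*, chr11:54100674-54100923, plus strand: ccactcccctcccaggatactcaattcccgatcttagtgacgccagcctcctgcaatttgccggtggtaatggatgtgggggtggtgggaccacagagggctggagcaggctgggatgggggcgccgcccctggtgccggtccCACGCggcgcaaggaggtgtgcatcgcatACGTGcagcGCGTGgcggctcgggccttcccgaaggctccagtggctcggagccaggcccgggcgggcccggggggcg
*P4ha1*, chr10:59323046-59323295, plus strand: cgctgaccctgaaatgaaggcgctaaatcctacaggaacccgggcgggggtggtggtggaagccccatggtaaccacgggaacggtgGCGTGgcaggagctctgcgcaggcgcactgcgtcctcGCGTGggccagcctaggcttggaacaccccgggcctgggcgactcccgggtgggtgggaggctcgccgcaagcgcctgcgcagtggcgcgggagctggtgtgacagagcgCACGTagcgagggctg
*Serpinh1*, chr7:99353240-99353489, minus strand: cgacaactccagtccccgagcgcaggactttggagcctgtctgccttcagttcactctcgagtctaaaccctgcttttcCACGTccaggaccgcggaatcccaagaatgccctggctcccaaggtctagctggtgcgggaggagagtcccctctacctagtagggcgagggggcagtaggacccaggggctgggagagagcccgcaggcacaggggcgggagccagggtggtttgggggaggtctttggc
The single match of *Pcolce* began 40 bases before the start, inside the gene interval, and that of *Serpinh1* 171 bases before it. The *P4ha2* matches began 107, 78 and 69 bases before the start, and the *P4ha1* matches 163, 126 and 16 bases before it, the last of them inside the gene interval. A match is a run of letters and not a measured binding site.

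*Pcolce*, the procollagen C-proteinase enhancer (chr5:137605105-137611522, GRCm38.p6), was far below the reference RNA in control retinas and in OIR retinas on P12, and much less so in OIR retinas on P17. In control mice its log2 ratio ran from -5.60 to -3.84 on P12 (median -4.33), from -4.71 to -3.56 on P17 (median -3.99) and from -5.05 to -3.22 on P28 (median -4.29). In OIR mice it ran from -5.01 to -3.43 on P12 (median -4.49), from -2.44 to -0.18 on P17 (median -1.39) and from -3.71 to -1.71 on P28 (median -2.79). The P17 groups did not overlap, and on P28 all 13 OIR mice lay above the control median and 11 above every control mouse. The group means, from the lowest, were -4.51 ± 0.52 (SD, n = 12) in control mice on P12, -4.42 ± 0.48 (n = 13) in OIR mice on P12, -4.26 ± 0.61 (n = 14) in control mice on P28, -4.06 ± 0.39 (n = 12) in control mice on P17, -2.80 ± 0.51 (n = 13) in OIR mice on P28 and -1.30 ± 0.61 (n = 13) in OIR mice on P17. The lowest 4 means lay within the larger SD of their neighbours, whereas OIR on P28 and OIR on P17 each stood apart from the mean below by more than that SD.

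**Figure D1:**
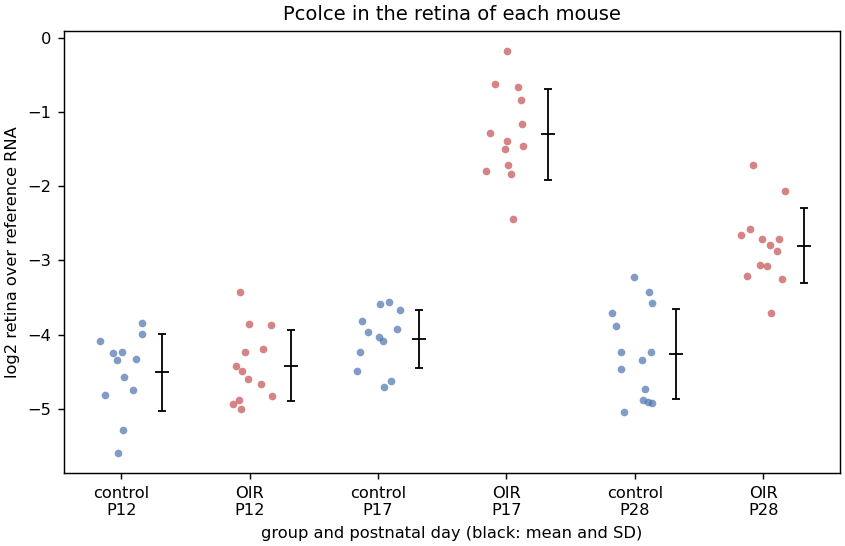
*Pcolce* in each mouse as log2 of retina over reference RNA (vertical axis) by group and postnatal day, with control mice in blue, OIR mice in red and the mean and SD in black. The 13 OIR mice on P17 lie between -2.44 and -0.18, above all 12 control mice of that day, and 11 of 13 OIR mice on P28 lie above every control mouse of that day.

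As a description, the P17 difference was 2.76 on the log2 scale (95% confidence interval 2.35 to 3.17, 6.78-fold) and the P28 difference 1.46 (1.02 to 1.89, 2.74-fold). Between those days the difference fell by 1.30. The ratio as the authors deposited it, which holds no added offset, gave 3.41 (10.7-fold) on P17 and 1.87 (3.64-fold) on P28. Within the 6 slides that held both groups on P17 the difference was 2.40 to 3.34, and within the 3 such slides on P28 it was 1.11 to 2.15. On P12, which the choice of the gene did not use, the difference was 0.089 (SE 0.195, limma adjusted p = 1), with a 95% confidence interval of -0.31 to 0.49. All 77 arrays read *Pcolce* well above background.

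On P17, 4 of the 9 other members were higher in OIR mice past an adjusted p of 0.05 and none was lower, while 0.803% of all probes were called higher on that day. These were the C-proteinase *Bmp1*, the lysyl oxidase *Loxl2*, the collagen chaperone *Serpinh1* and the prolyl hydroxylase subunit *P4ha2*. The members were chosen with earlier results of these data known, so the count beside the share of all probes is a description. With array weights *Pcolce2* was called lower as well (-0.12, adjusted p = 0.0445). The median difference of the 8 members other than *Lox*, which was too dim to measure that day, was 0.52 on the log2 scale, beside 0.00097 over all probes. With the deposited ratio *Plod2* was called as well, which made 5 of 9, beside 1.67% of all probes called higher in that ratio. With the filter on dim probes 5 members were called, beside 889 of 20724 probes in either direction, 329 of them lower.

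**Figure D2:**
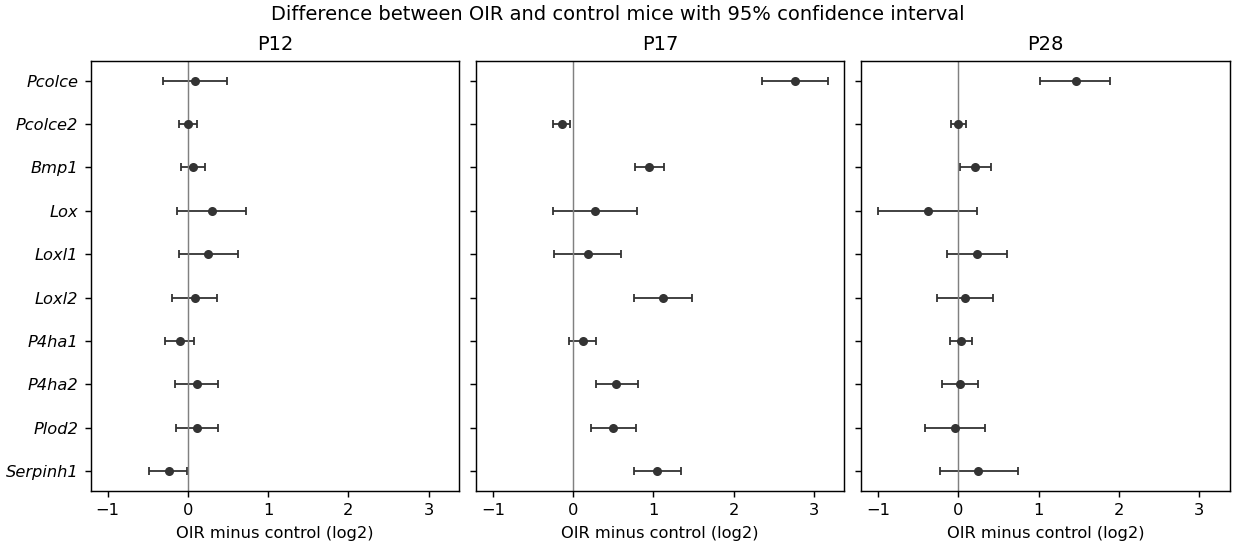
Difference between OIR and control mice in log2 ratio (horizontal axis) for the 10 genes on P12, P17 and P28, with 95% confidence intervals from limma. On P17 *Pcolce* stands at 2.76, *Bmp1*, *Loxl2* and *Serpinh1* lie between 0.95 and 1.12, and on P12 and P28 the other genes apart from *Lox* lie between -0.24 and 0.25. *Lox* was not well above background on any P12 or P17 array.

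*Bmp1* (chr14:70474555-70520716) encodes the proteinase that cuts the C-propeptide, the step that *Pcolce* enhances. Its log2 ratio on P17 ran from -1.25 to -0.67 in control mice (median -0.97) and from -0.34 to 0.47 in OIR mice (median -0.059). The groups did not overlap, which held for 0.119% of all probes with OIR mice on the higher side. The difference was 0.95 (SE 0.0868, 1.93-fold, adjusted p = 1.48e-07) and 0.68 to 1.30 within the 6 slides with both groups. On P12 the control and OIR means were -0.55 ± 0.17 and -0.49 ± 0.19, and on P28 they were -1.39 ± 0.17 and -1.18 ± 0.30. OIR on P17 was the highest of the 6 group means of *Bmp1*, by more than the larger SD.

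*Pcolce2*, the paralogue of *Pcolce* and also an enhancer of C-proteinase activity, had a different course. On P17 its log2 ratio ran from -0.18 to 0.32 in control mice (median -0.034) and from -0.22 to 0.11 in OIR mice (median -0.16). The groups overlapped, although 11 of 13 OIR values were under the control median, and the difference was -0.14 (SE 0.050, adjusted p = 0.24). It was read well above background on 10 of 12 control and 7 of 13 OIR arrays that day. The deposited ratio gave -0.54 (adjusted p = 0.0691).

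Of the lysyl oxidases only *Loxl2* (chr14:69608692-69695834), which oxidises lysines of basement membrane collagen among other substrates, was called on P17. Its log2 ratio ran from -2.28 to -0.65 in control mice (median -1.18) and from -1.09 to 0.27 in OIR mice (median -0.15). All 13 OIR mice lay above the control median and 11 above every control mouse. The difference was 1.12 (SE 0.175, 2.17-fold, adjusted p = 0.000484) and 0.76 to 1.53 within the 6 slides. *Loxl1*, best known for crosslinking elastin, ran from -3.17 to -0.96 in control and from -2.86 to -1.46 in OIR mice, with a difference of 0.18 (95% confidence interval -0.24 to 0.60, adjusted p = 0.774). *Lox*, the founding lysyl oxidase, was not well above background on any of the 50 arrays of P12 and P17, so no fold is given for it on those days. The difference between *Loxl2* and the other lysyl oxidases was not tested.

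Of the hydroxylases *P4ha2* was called on P17. *P4ha2* (chr11:54100924-54131668) ran on P17 from -2.85 to -1.38 in control mice (median -2.17) and from -2.07 to -1.12 in OIR mice (median -1.59). All 13 OIR mice lay above the control median, but only 2 above every control mouse. The difference was 0.54 (SE 0.128, 1.46-fold, adjusted p = 0.031), and 5 of 6 slides had the OIR mice higher (-0.13 to 1.09). *Plod2* (chr9:92539636-92608428), the lysyl hydroxylase that acts on collagen telopeptides, ran from -1.84 to -0.55 in control mice (median -1.02) and from -1.03 to -0.32 in OIR mice (median -0.59). 12 of 13 OIR mice lay above the control median, and its difference of 0.50 (SE 0.135, adjusted p = 0.0799) missed the threshold. With the deposited ratio it was 1.07 (adjusted p = 5.36e-05), and with the slide as a block 0.40 (adjusted p = 0.0362). *P4ha1*, the other catalytic subunit, differed by 0.12 (95% confidence interval -0.045 to 0.29, adjusted p = 0.62).

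*Serpinh1* (chr7:99345375-99353239), whose product HSP47 is a chaperone specific for collagen, ran on P17 from -2.80 to -1.42 in control mice (median -2.48) and from -1.97 to -0.90 in OIR mice (median -1.26). All 13 OIR mice lay above the control median and 10 above every control mouse. The difference was 1.05 (SE 0.141, 2.07-fold, adjusted p = 6.35e-05) and 0.81 to 1.41 within the 6 slides. OIR on P17 was the highest of its 6 group means, above control on P12 (-2.04 ± 0.25) by more than the larger SD.

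**Figure D3:**
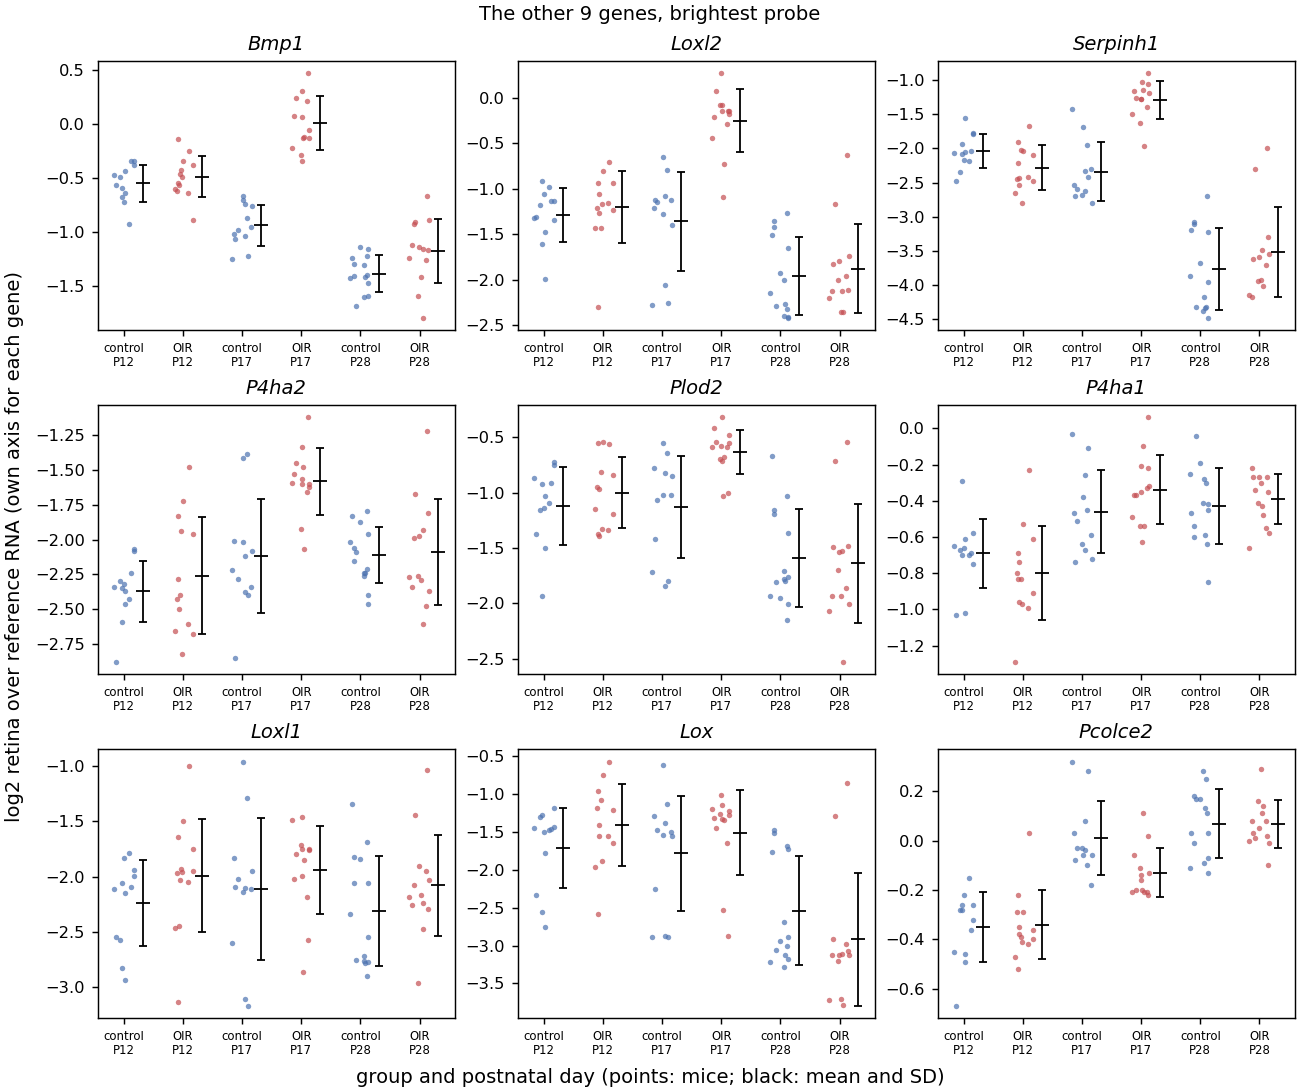
The other 9 genes in each mouse as log2 of retina over reference RNA (vertical axes, scaled for each gene) by group and postnatal day, with control mice in blue, OIR mice in red and the mean and SD in black. OIR mice on P17 have the highest mean, by more than the larger SD, for *Bmp1*, *Loxl2*, *Serpinh1*, *P4ha2* and *Plod2*. They are also highest for *P4ha1* and *Loxl1*, but within that SD. *Serpinh1* is lowest on P28 in both groups. *Lox* was not well above background on any P12 or P17 array.

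Probes of a gene did not always move alike on P17. None of the 7 further probes of the members was called, although 6 of them were higher in OIR mice. For *Bmp1*, probe A_55_P2006708 gave 0.16 (adjusted p = 0.765) and probe A_55_P2006698 gave 0.61 (adjusted p = 0.13), against 0.95 for the brightest probe. For *Loxl2*, the further probes A_55_P2131348 and A_51_P275949 gave 0.45 (adjusted p = 0.0902) and 0.32 (adjusted p = 0.116), against 1.12. With the deposited ratio they gave 1.22 (adjusted p = 0.000191) and 1.86 (adjusted p = 2.95e-07). Probe A_51_P275949, which gave 1.86, was well above background on only 3 of 12 control and 6 of 13 OIR arrays that day. Averaging all probes of a gene first lowered the P17 difference to 0.57 for *Bmp1* and to 0.63 for *Loxl2*, and both were still called (adjusted p = 0.0161 and 0.00734).

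**Figure D4:**
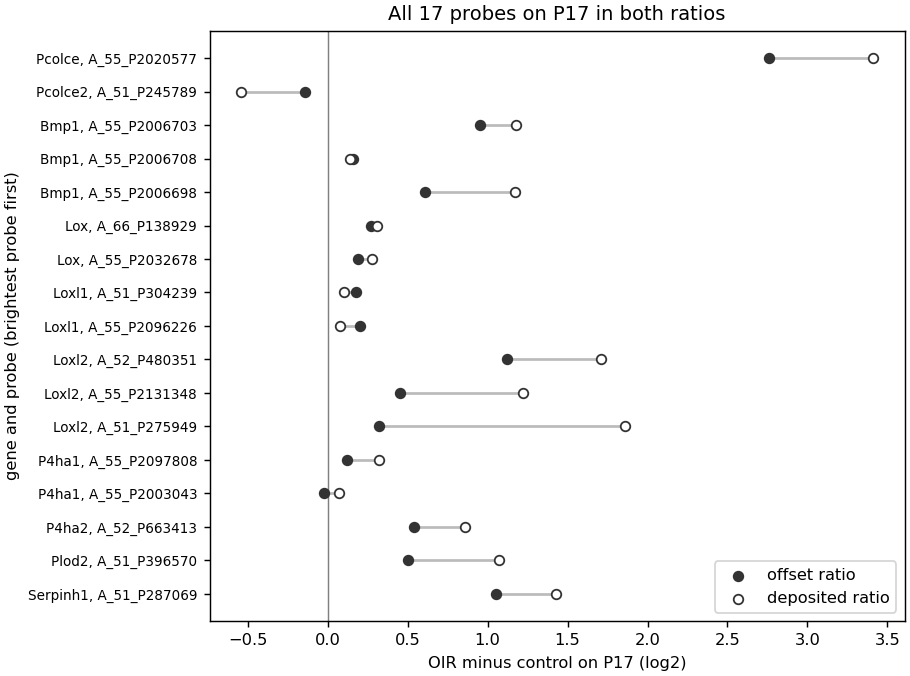
OIR minus control difference on P17 in log2 ratio (horizontal axis) for each of the 17 probes, with the ratio computed with an offset filled and the ratio as deposited open. The probes of *Loxl2* range from 0.32 to 1.12 with the offset and from 1.22 to 1.86 as deposited, while a probe of *Bmp1* stays at 0.16 and 0.14. The *Loxl2* probe at 1.86 was well above background on only 3 of 12 control and 6 of 13 OIR arrays.

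On P12, immediately after hyperoxia, none of the 9 members was called, with 0.0233% of all probes called in either direction. The differences of the 8 members other than *Lox* lay between -0.24 and 0.25 with a median of 0.072, and only *Serpinh1* had an unadjusted p under 0.05 by limma (-0.24, adjusted p = 1, 9 of 13 OIR values under the control median). On P28 none was called either, with 0.0611% of all probes called, or 3.15% without the 4 arrays of low agreement. For the same 8 members the differences lay between -0.046 and 0.25 with a median of 0.056, and only *Bmp1* had an unadjusted p under 0.05 (0.21, adjusted p = 0.649, 10 of 13 OIR values over the control median). The deposited ratio also called no member on P12 or P28, with 0.07% and 0.203% of all probes called in it. Its P12 differences for the same 8 members had a wider range, from -0.73 for *P4ha1* (limma adjusted p = 0.0884) to 0.19 for *Loxl1*. *Serpinh1* had -0.49 in it. In the retina channel alone *P4ha1* differed on P12 by -0.43 (adjusted p = 0.0752).

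The difference between OIR and control mice was larger on P17 than on P12 for 3 of the 9 members, beside 0.436% of all probes called in that direction. It grew by 1.29 for *Serpinh1* (SE 0.257, adjusted p = 0.00159), by 1.04 for *Loxl2* (SE 0.238, adjusted p = 0.0124) and by 0.89 for *Bmp1* (SE 0.122, adjusted p = 4.41e-07). From P17 to P28 it fell by 1.04 for *Loxl2* (SE 0.234, adjusted p = 0.0171) and by 0.74 for *Bmp1* (SE 0.120, adjusted p = 6.89e-05), beside 0.244% of all probes called lower. With the mean of all probes of a gene, the changes of *Bmp1* (adjusted p = 0.401 and 0.126) and *Loxl2* (adjusted p = 0.402 and 0.0939) were not called in either interval. For *Serpinh1* the change from P17 to P28 was -0.79 (adjusted p = 0.196) with all arrays and -1.01 (adjusted p = 0.00447) without the 4 arrays of low agreement. Without those arrays 6 of 9 members were called in place of 2, with *Plod2* (-0.76), *P4ha2* (-0.60) and the dim *Lox* besides, but 8.3% of all probes were then called lower.

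In control mice, which had no hyperoxia, some members differed between days. From P12 to P17 *Pcolce2* rose by 0.36 (SE 0.0523, adjusted p = 1.35e-06) and *Bmp1* fell by 0.39 (SE 0.0883, adjusted p = 0.00515), with 1.28% of all probes called. The *Pcolce2* probe was well above background on 5 of 12 control arrays on P12 and 10 of 12 on P17, and its rise was 1.63 with the deposited ratio and 1.23 with offset 0. From P17 to P28, 5 of the 9 members were called lower and none higher, with 5.38% of all probes called lower. *Serpinh1* fell most, by 1.43 (SE 0.179, adjusted p = 2.6e-08), followed by *Loxl2* (-0.59, adjusted p = 0.00963), *Plod2* (-0.46, adjusted p = 0.0346) and *Bmp1* (-0.45, adjusted p = 0.000118). *Lox* was the other call, but it was well above background on none of 12 control arrays on P17 and 1 of 14 on P28, so no size is given for it. P28 arrays had more probes above background than P17 arrays, and the part of this in the falls was not tested. In the retina channel alone the values were -0.86 for *Serpinh1* (adjusted p = 2.45e-09), -0.46 for *Loxl2* (adjusted p = 0.00174), -0.43 for *Bmp1* (adjusted p = 3.21e-05) and -0.17 for *Plod2* (adjusted p = 0.22).

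Among the other genes of collagen processing 2 were called with the offset, both on P17, when 0.803% of all probes were called higher. None of 11 further genes of hydroxylase complexes and glycosyltransferases, 7 further procollagen proteinases and 2 further lysyl oxidases was called on any of the 3 days. On P17 their medians were 0.14, 0.020 and 0.15. The proteinases and lysyl oxidases were dim. On P17, 2 of the 7 proteinases in control mice and 3 of 7 in OIR mice were above background on no array. No proteinase and neither lysyl oxidase was above background on all arrays of either group, which limits what their medians show. Of 9 further chaperones and secretion factors, 2 were higher on P17: *Fkbp10* (0.91, adjusted p = 6.95e-07), a peptidyl-prolyl isomerase that works with HSP47, and *Sparc* (0.74, adjusted p = 0.00291), a collagen-binding matricellular protein. The deposited ratio called 1.67% of all probes higher on P17. Of the 11 genes of hydroxylase complexes and glycosyltransferases it called 2 higher, *P3h4* (0.60, adjusted p = 0.00135) and *Crtap* (0.59, adjusted p = 0.0377). With the offset these had 0.45 (adjusted p = 0.2) and 0.42 (adjusted p = 0.393). The deposited ratio also called the N-proteinase *Adamts2*, at 1.85 (adjusted p = 0.000275), against 0.58 (adjusted p = 0.4) with the offset.

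Some of the collagen chains that these enzymes act on were called higher on P17, beside 0.803% of all probes. Of 8 basement membrane chains 3 were higher on P17, namely *Col4a1* (1.09, adjusted p = 0.00061), *Col4a2* (1.05, adjusted p = 0.00609) and *Col18a1* (0.68, adjusted p = 0.000239). The median of these 8 chains was 0.2. *Col4a1* and *Col4a2* form the type IV collagen of vascular basement membranes. Of 11 fibrillar chains 2 were higher, *Col2a1* (0.69, adjusted p = 0.00667) and *Col5a3* (0.67, adjusted p = 2.7e-05), and the list median was 0.49. *Col1a1* differed by 0.97 (SE 0.345, adjusted p = 0.256) and *Col3a1* by 0.69 (SE 0.226, adjusted p = 0.189). With the deposited ratio 4 of the 8 basement membrane chains and 6 of the 11 fibrillar chains were called higher, beside 1.67% of all probes. The fibrillar calls included *Col1a1* (1.65, adjusted p = 0.00147) and *Col3a1* (1.25, adjusted p = 7.57e-06), but not *Col2a1* (0.55, adjusted p = 0.509). No chain of either list was called on P12 or P28. On P28 *Col18a1* still differed by 0.83 and *Col1a2* by 0.40 without a call. The P28 list medians were 0.069 for basement membrane chains and -0.034 for fibrillar chains.

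Genes of the hypoxia response outside collagen were higher on P17 for 5 of 15, with a list median of 0.29, beside 0.803% of all probes. The deposited ratio called 9 of 15, beside 1.67% of all probes called higher in it. With the offset they were *Ndufa4l2*, a mitochondrial protein (2.03, adjusted p = 1.82e-12), the peptide hormone *Adm* (1.31, adjusted p = 0.00157), *Vegfa*, the main angiogenic factor of this model (0.97, adjusted p = 2e-08), *Bnip3*, which acts in mitophagy (0.84, adjusted p = 2.93e-05), and *Higd1a* (0.54, adjusted p = 0.00801). The glycolytic genes *Ldha* (0.13, adjusted p = 0.642) and *Pgk1* (0.21, adjusted p = 0.645) were not called. On P28 only *Ndufa4l2* was called (0.79), and on P12 none of the 15.

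Some markers of vascular and mesenchymal cells were also called higher on P17, beside 0.803% of all probes. Of 10 mural cell markers 4 were higher, *Cd248* (1.97, adjusted p = 1.16e-07), *Tagln* (1.03, adjusted p = 0.0164), *Cspg4* (0.73, adjusted p = 0.0213) and *Notch3* (0.63, adjusted p = 0.0174), whereas *Rgs5* differed by 0.039 (adjusted p = 0.949) and *Pdgfrb* by 0.31 (adjusted p = 0.13). The deposited ratio called 6 of the 10, beside 1.67% of all probes called higher in it. The mean of the mural list ran from -1.27 to -0.62 in control mice and from -0.71 to -0.15 in OIR mice. Of 10 fibroblast and meninges markers 2 were higher, *Mgp* (1.14, adjusted p = 0.000159) and *Fbln1* (0.75, adjusted p = 0.0319), and the list mean ran from -1.96 to -0.66 and from -1.40 to -0.61. Of 10 endothelial markers only *Egfl7* was higher (1.09, adjusted p = 4.47e-08), while *Pecam1* differed by 0.059 (adjusted p = 0.36), and the list mean ran from 0.19 to 0.70 and from 0.47 to 0.89. On P12 *Egfl7* (-0.86) and the mural gene *Abcc9* (-0.37) were lower.

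Of 10 Mueller glia markers *Vim*, the intermediate filament gene, was higher on P17 (1.19, adjusted p = 2e-08), and the list median was -0.36. Rod markers, from the most numerous cells of this tissue, were read above background on all arrays and none of 6 was called on any day. Of 10 pigment epithelium markers only *Rpe65* was lower on P17 (-0.81, adjusted p = 0.0322), with a list median of -0.27. Of 8 lens markers only *Bfsp2* was lower (-0.31, adjusted p = 0.0159), with a list median of -0.12. The lens markers were dim that day, with 1 of 8 in control and 2 of 8 in OIR mice above background on no array. All mural and fibroblast markers were read on some arrays of P28, and on P17 fibroblast markers had 2 of 10 in control and 3 of 10 in OIR mice above background on no array. The part of each cell type in the differences of the members was not tested.

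**Figure D5:**
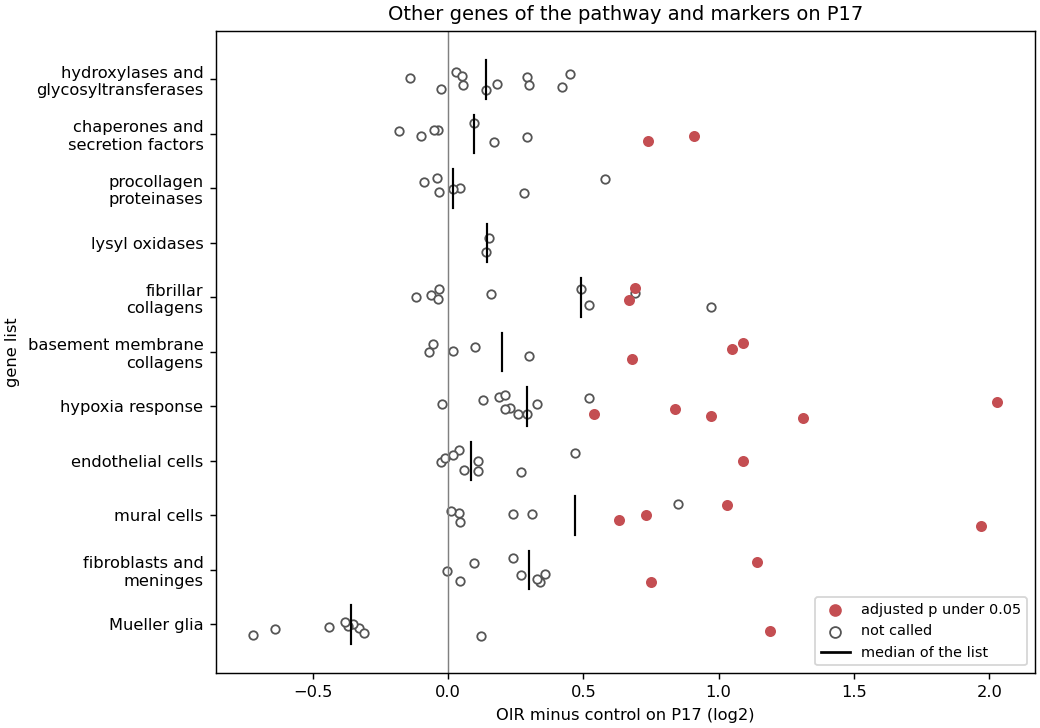
OIR minus control difference on P17 in log2 ratio (horizontal axis) for the genes of 11 lists, with genes past an adjusted p of 0.05 filled in red, others open and each list's median as a black line. The called genes include *Ndufa4l2* at 2.03, *Cd248* at 1.97 and *Col4a1* at 1.09, and the lists of proteinases, hydroxylases and lysyl oxidases hold no called gene.

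The genes whose levels ran most like *Pcolce* over the 77 arrays were *Cp* (Pearson r = 0.909), which encodes ceruloplasmin, the metallothionein *Mt2* (0.90), *Pbxip1* (0.897), the calcium-binding *S100a6* (0.891), *2610528A11Rik* (0.88), *Rhoj* (0.871), *Mt1* (0.863), the transcription factor *Cebpd* (0.859), *Bcl3* (0.849) and *Slc25a37* (0.849). The arrays share the day and oxygen groups, so these values are a description. With group means removed the 10 values ran from 0.368 for *2610528A11Rik* to 0.779 for *S100a6*. Their P17 differences, from 0.94 for *Rhoj* to 2.65 for *Cebpd*, and their P28 differences, from 0.35 for *Slc25a37* to 1.25 for *Cebpd*, follow from that choice. Of the members *P4ha2* was the most like *Pcolce* (0.701), followed by *Loxl2* (0.583) and *Bmp1* (0.511). With group means removed the order turned, with 0.687 for *Bmp1*, 0.566 for *Plod2*, 0.561 for *Loxl2* and 0.558 for *P4ha2*.

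Among the members themselves, within groups, *Pcolce* and *Bmp1* varied together from mouse to mouse (r = 0.687 over 77 arrays, and 0.71 with the deposited ratio). *Lox* and *Plod2* (0.89), *Lox* and *Loxl2* (0.846) and *Lox* and *Loxl1* (0.835) had higher values, although *Lox* was dim on most arrays, and with the deposited ratio the values were 0.304, 0.448 and -0.041. Within groups, the number of probes above background on an array correlated with *Lox* at -0.919, *Plod2* at -0.832 and *Loxl1* at -0.793. With the deposited ratio these were -0.828, -0.365 and -0.00259. Of the members called on P17, *Loxl2* had -0.772, *Serpinh1* -0.571, *P4ha2* -0.484 and *Bmp1* -0.274. Their values with the deposited ratio were -0.582, -0.0645, 0.541 and -0.314. *Pcolce* had -0.415 (-0.0782 as deposited), *P4ha1* 0.218 (0.55) and *Pcolce2* 0.0895 (0.107). The part of array brightness in the P17 calls was not tested.

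In the reference channel alone, which should not differ between groups, no member was called on any day, and the differences lay between -0.067 and 0.084.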

How the data were processed

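Retinal RNA of 77 mice was hybridised with a reference RNA on Agilent 2-colour arrays, of which 11 slides were used. The authors deposited scanner output of Agilent Feature Extraction (10.7.3.1 in the file headers), with an intensity for each of 62976 spots, and a table of log2 ratios. The deposited log2 values equalled processed Cy3 over processed Cy5 signal within 0.001, and their array medians lay between -0.13 and 0.01. The study's own normalization was done in GeneSpring, with parameters not given in the sources used here.

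From the median signals, background was corrected with normexp (offset 50) and ratios were normalized by loess within arrays in limma 3.58.1 (R 4.3.3). Outlier spots (0.592% to 0.951% an array) and control spots were left out, and spots of a probe were averaged. An offset pulls ratios of dim probes toward 0, so a fold on this scale understates the change of low genes. Each gene was read by its brightest probe. OIR and control mice were compared day by day, and changes between days were tested in a model of all 6 groups, with Benjamini-Hochberg adjustment over 55681 probes. Slides with both groups of a day numbered 7 of 9 on P12, 6 of 10 on P17 and 3 of 9 on P28. The number of arrays limits the precision. The fits were checked on simulated data.

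Members and gene lists were chosen with earlier results of these data known. All 10 members were named, with, of each list, genes called on a day (at most 5 in each direction) and the 10 genes most correlated with *Pcolce*. *Rgs5*, *Pdgfrb*, *Pecam1*, *Ldha*, *Pgk1*, *Col1a1*, *Col3a1*, *P3h4*, *Crtap* and *Adamts2* were named after their values were seen. Gene names came from the array's transcript accessions through RefSeq, and array coordinates were not used here. The alternatives were the deposited ratio, no background subtraction, no offset, the retina channel alone, slide as a block, array weights, a trended robust fit, a filter on dim probes, the mean of a gene's probes, 1 fit over all groups and, chosen after seeing the data, leaving out 4 arrays.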

Additional observations from a re-analysis of the deposited data

Results flagged for a closer look

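The difference between OIR and control mice changed between days, by a test of the change itself, for 3 members. From P12 to P17 it changed by 0.89 for *Bmp1*, by 1.04 for *Loxl2* and by 1.29 for *Serpinh1*. From P17 to P28 it changed by -0.74 for *Bmp1* and by -1.04 for *Loxl2*. With the mean of all probes of a gene the *Bmp1* and *Loxl2* changes were not called (limma adjusted p = 0.401 and 0.402 from P12 to P17, 0.126 and 0.0939 from P17 to P28). The part of cell type markers and of array brightness in these changes was not tested.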

How the results depend on the processing

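The P17 calls of *Bmp1* (0.57 to 1.21), *Loxl2* (0.63 to 1.71), *Serpinh1* (1.01 to 1.47) and *P4ha2* (0.48 to 0.86) kept their direction and stayed past the threshold in all 11 alternatives, and *Plod2* (0.39 to 1.07) was called in 7 of 11. *Pcolce2* was called lower on P17 with array weights (-0.12, adjusted p = 0.0445). The number of members called on P12, P17 and P28 stayed within 1.5 times of the reported one. The *Pcolce* difference on P12, 0.089 and not called, turned to -0.050 (deposited ratio), -0.049 (offset 0, and slide as a block), -0.033 (retina channel alone), -0.067 (array weights) and -0.010 (4 arrays left out). For the other members, 17 of 97 alternative values on P12 and 16 of 98 on P28 turned sign, and none was called. The count of members whose difference grew from P12 to P17, reported as 3, was 6 with the deposited ratio, offset 0 or the retina channel alone, and 1 with the mean of a gene's probes. The count that fell from P17 to P28, reported as 2, was 4 in the retina channel alone, 6 without the 4 arrays (with 8.3% of all probes then called lower in place of 0.244%) and 0 with the mean of a gene's probes. In the retina channel alone 367 of 55681 probes were called lower, in place of 136, and with the mean of probes 120 of 48809. With that mean, the changes of *Bmp1* and *Loxl2* from P12 to P17 were 0.52 (limma adjusted p = 0.401) and 0.54 (adjusted p = 0.402), and those from P17 to P28 -0.60 (adjusted p = 0.126) and -0.66 (adjusted p = 0.0939). In control mice the count from P12 to P17, reported as 2, was 1 with the mean of probes, and that from P17 to P28, reported as 5, was 3 in the retina channel alone, where *Lox*, too dim for a sized change, turned to 0.012. The cause of these shifts was not tested. No paired analysis was possible because the groups share no replicate numbers, and the slide was used as a block in its place. *Lox* was dim on all P12 and P17 arrays, which limits what can be said of it.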
